A study of Mus musculus with 6 samples.

Results

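The genes described here are those of the switch that commits a cell to DNA replication: the D cyclins Ccnd1, Ccnd2 and Ccnd3, their kinases Cdk4 and Cdk6, the inhibitors Cdkn2a, Cdkn2b and Cdkn2c of the INK4 family and Cdkn1b of the KIP family, and Rb1. They were taken by name, as every locus of the count table that carried one of the 10 symbols. The symbols stood on 12 of 51499 loci, because Rb1 named 3 loci, of which 2 held no fragment. The remaining 10 loci, 1 for each gene, were all among the 13867 loci with enough fragments for a test, and none was merged with a neighbouring gene. Transcripts were measured by poly(A) RNA sequencing in 3 cultures of mouse embryonic fibroblasts (MEFs) whose Yme1l fl/fl alleles were intact, called WT, and 3 cultures of Yme1l-/- MEFs, to ask how loss of the mitochondrial inner membrane protease YME1L alters gene expression. All cells came from floxed primary fibroblasts made immortal with SV40 large T antigen, and the labels give no treatment. Cre recombinase was introduced and clones of either genotype were then picked out by genotyping, so that genotype and clone history cannot be told apart.

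D cyclins bind CDK4 and CDK6, and the active kinases phosphorylate the retinoblastoma protein Rb, which then releases E2F transcription factors that switch on genes of DNA replication. INK4 proteins hold CDK4 and CDK6 away from cyclin D, whereas p27, the product of Cdkn1b, mainly blocks CDK2 bound to cyclin E or cyclin A. In cultured fibroblasts the INK4 genes are known for their rise with passage and senescence. SV40 large T antigen, which the cells of both genotypes received, is known to bind and disable Rb, its relatives p107 and p130, and p53.

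Cdkn2a needs to be read with its structure in mind, since it encodes a pair of unrelated proteins. Transcripts from the proximal start (Cdkn2a-201, 852 bases) give p16INK4a, the CDK4 and CDK6 inhibitor, and transcripts from the distal start (Cdkn2a-202, 895 bases) give p19ARF, which stabilizes p53 by binding MDM2. In the GENCODE annotation the transcripts share 575 exon bases, their starts lie 12.5 kb apart, and the distal start lies 16.4 kb from that of Cdkn2b, which encodes p15INK4b. Gene-level counts therefore give the sum of p16INK4a and p19ARF messages. RefSeq promoter entries (300 bases on GRCm38.p6, from 250 before to 50 after a start) were found for 7 of the 10 genes, with no entry for Ccnd1, Ccnd2 and Rb1. The entries of the INK4 locus and of Cdk4 are shown 5′ to 3′ because Cdkn2a and Cdkn2b moved together and Cdk4 was the most abundant of these genes. Capitals mark an E2F octamer (TTTGGCGC, TTTGCCGC, TTTCGCGC or TTTCCCGC) in the Cdkn2a entries, a cyclic AMP response element (TGACGTCA) in the Cdkn2b entry, and E-boxes (CACGTG), the recognition sequence of the MYC family among others, in the Cdk4 entry.
Cdkn2a distal start, chr4:89294570-89294869, minus strand: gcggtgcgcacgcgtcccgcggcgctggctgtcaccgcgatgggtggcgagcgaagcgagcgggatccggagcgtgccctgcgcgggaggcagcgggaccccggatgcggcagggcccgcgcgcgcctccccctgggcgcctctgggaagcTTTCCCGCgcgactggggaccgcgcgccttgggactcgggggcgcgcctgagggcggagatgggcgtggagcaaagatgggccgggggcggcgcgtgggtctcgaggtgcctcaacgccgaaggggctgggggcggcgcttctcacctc
Cdkn2a proximal start, chr4:89282143-89282442, minus strand: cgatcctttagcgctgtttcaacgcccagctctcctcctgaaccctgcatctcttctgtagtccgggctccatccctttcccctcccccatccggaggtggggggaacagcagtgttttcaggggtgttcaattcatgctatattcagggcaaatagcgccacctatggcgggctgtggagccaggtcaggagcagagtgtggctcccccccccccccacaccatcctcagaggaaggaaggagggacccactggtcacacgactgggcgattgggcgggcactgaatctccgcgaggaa
Cdkn2b, chr4:89310983-89311282, minus strand: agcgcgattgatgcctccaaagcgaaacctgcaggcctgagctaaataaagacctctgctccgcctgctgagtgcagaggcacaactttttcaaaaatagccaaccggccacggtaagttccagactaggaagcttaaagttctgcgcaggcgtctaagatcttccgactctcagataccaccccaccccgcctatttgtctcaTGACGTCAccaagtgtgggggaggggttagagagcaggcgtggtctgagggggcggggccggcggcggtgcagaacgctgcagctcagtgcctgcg
Cdk4, chr10:127063285-127063584, plus strand: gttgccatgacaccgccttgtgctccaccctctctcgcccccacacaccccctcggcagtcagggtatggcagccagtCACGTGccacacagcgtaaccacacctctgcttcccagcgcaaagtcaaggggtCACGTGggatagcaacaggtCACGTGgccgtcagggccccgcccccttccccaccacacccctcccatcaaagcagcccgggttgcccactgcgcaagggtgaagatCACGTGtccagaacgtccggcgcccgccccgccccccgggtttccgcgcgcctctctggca

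Each of the motifs was searched on both strands, and was chosen after the promoters had been seen, and no 2 different motifs overlapped in these entries. The distal Cdkn2a entry held 1 E2F octamer, at -99 from the start, and none of these letters stood in the proximal entry. Among all 32851 mouse promoter entries 2.26% held such an octamer. The Cdkn2b entry held 1 response element at -46, a motif present in 1.79% of entries. In the Cdk4 entry 4 E-boxes stood at -172, -118, -98 and -11, where 7.15% of all entries held any E-box and 8 entries held 4 or more. An E-box also stood in the Cdk6 entry, at -220, and in 1 of the Cdkn2c entries, at 34 after the start. A match of letters describes the window and does not show that a factor bound there.

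The WT libraries held 33180867 to 34012520 fragments and the Yme1l-/- libraries 34624075 to 49351107. The targeted gene, listed as Yme1l1, fell from 188.7 to 39.1 CPM (CPM is the fragment count scaled to library size). Fibroblast markers were abundant in every library, with a summed level of 10839 to 11402 CPM in WT and 6646 to 7133 CPM in Yme1l-/- cells, although Thy1 and Lum had at most 11 fragments in any library. Among the 8 fibroblast markers tested 6 were lower and 1 was higher in Yme1l-/- cells, where 34.1% of all tested loci were lower and 33.6% higher. The lower calls numbered 4 without any 1 of the Yme1l-/- cultures. WT replicate 2 stood apart from the other WT libraries (chi-square per degree of freedom 35.7 and 38.5, against 12.9 between those), with 9860 fragments of Col3a1 against 2858 and 2974 and 257 of Dcn against 52 and 51. Without it 6 markers were again lower and 1 higher, and all 9 calls among the 10 genes described here were kept. Epithelial markers summed to 33.1 to 35.1 CPM in WT and 0.373 to 0.686 CPM in Yme1l-/- cells, in WT almost entirely Krt18. Epcam had 50, 42 and 35 fragments in WT and 2, 5 and 5 in Yme1l-/- libraries, and both it and Krt18 were called lower, while Cdh1 had 2 to 12 fragments. Endothelial markers (mainly Kdr) moved from 0.888 to 1.44 CPM in WT to 1.67 to 2.00 CPM in Yme1l-/- cells. Haematopoietic markers (almost entirely Cd68) moved from 1.74 to 1.96 CPM to 3.77 to 4.14 CPM. Neural markers (mainly Map2) moved from 22.5 to 27.4 CPM to 6.23 to 8.30 CPM. Skeletal muscle markers (mainly Des) moved from 0.398 to 0.604 CPM to 2.2 to 3.2 CPM. The part of these marker shifts in the results below was not tested, and in bulk RNA fewer cells of a type and less RNA per cell cannot be told apart.

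Of the 10 genes, 3 were higher (Ccnd2, Cdk4 and Cdkn1b), 6 were lower (Ccnd1, Ccnd3, Cdk6, Cdkn2a, Cdkn2b and Rb1) and Cdkn2c was not called in Yme1l-/- cells. A call is an edgeR adjusted p under 0.05 over all loci tested. Calls were the rule in this comparison, with 67.7% of all tested loci called, 33.6% higher and 34.1% lower, and the 9 calls among the 10 genes are to be read against that share. Only Ccnd1 among the 10 differed by at least 2-fold, against 17.7% of tested loci. The libraries of the genotypes did not overlap for 8 of the genes, against 71.9% of loci. The median log2 fold change of the 10 was -0.20, against -0.00 over all loci.

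**Figure D1:**
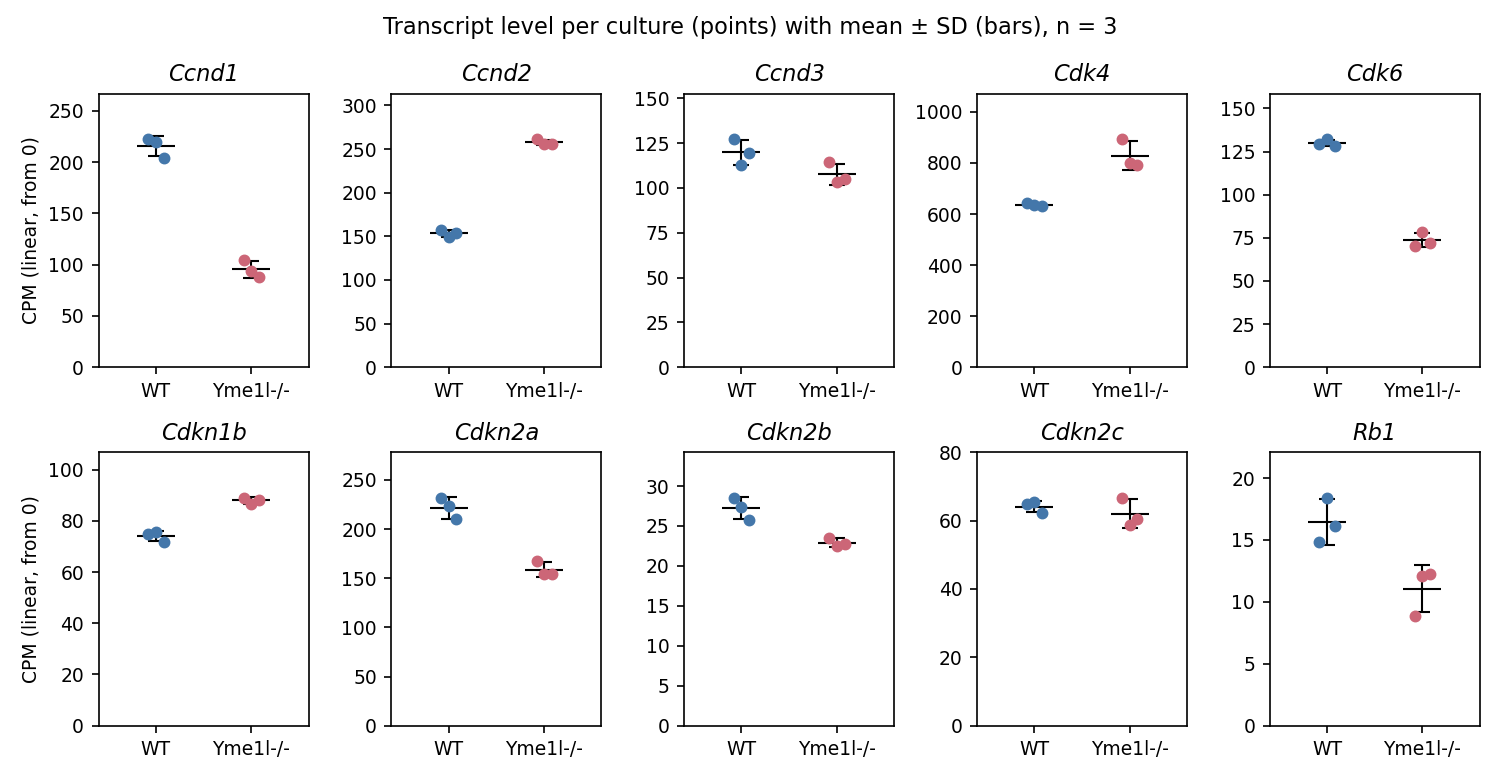
Level of each of the 10 genes in CPM (linear axes from 0, a separate scale for each gene) in the 3 WT (blue) and 3 Yme1l-/- (red) cultures, with bars for mean and SD. The points of the genotypes are apart for 8 genes and overlap for Ccnd3 and Cdkn2c.

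The D cyclins moved in opposite directions. Ccnd1, which encodes cyclin D1, the D cyclin that mitogens induce in fibroblasts, stood at 222, 219 and 204 CPM in the WT cultures and at 105, 94.2 and 88.1 CPM in the Yme1l-/- cultures. Every Yme1l-/- culture lay below every WT culture, with 44.4% of the WT level left. Its log2 fold change was -1.17 ± 0.06 (SE, n = 3 per genotype), with a 95% interval from -1.31 to -1.03 and an adjusted p of 3.1e-08 by edgeR. Ccnd1 (mm10 chromosome 7, 144929931 to 144939925 in GENCODE, with a deposited range from 144915100) ranked above 85.1% of tested loci in the size of its change. Oraov1, which overlaps the deposited range of Ccnd1 on the opposite strand, had a log2 fold change of 0.17 ± 0.08 (SE) and was not called (edgeR adjusted p = 0.0603).

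Ccnd2, which encodes cyclin D2, rose. The gene had 157, 149 and 153 CPM in the WT cultures and 261, 256 and 256 CPM in the Yme1l-/- cultures, again without overlap. The 3 Yme1l-/- cultures lay within 6 CPM of each other although their depths differed. The mean rose 1.68-fold, which is 0.75 ± 0.04 (SE) on the log2 scale (edgeR adjusted p = 3.05e-08). Ccnd2 lies on chromosome 6 (127125162 to 127152193 in GENCODE), and its deposited range (127122966 to 127212411) also covers antisense genes and pseudogenes, among them Tpi-rs11 on the same strand, which had a log2 fold change of 0.20 and was not called. The tested loci of chromosome 6 had a median log2 fold change of 0.34, and with the median of each chromosome removed its log2 fold change was 0.41, still a call.

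Ccnd3, the gene of cyclin D3 (chromosome 17, 47505051 to 47599691 in GENCODE, with a deposited range to 47611492), changed little. Its WT cultures had 127, 113 and 119 CPM and its Yme1l-/- cultures 114, 103 and 105 CPM, so the highest Yme1l-/- culture lay above the lowest WT culture. The log2 fold change was -0.16 ± 0.06 (SE) and the edgeR adjusted p was 0.0312. This call was lost under upper-quartile scaling (log2 fold change -0.10, edgeR adjusted p = 0.156) and without WT replicate 1 (-0.11), WT replicate 3 (-0.16), Yme1l-/- replicate 2 (-0.13) or Yme1l-/- replicate 3 (-0.14). With chromosome medians removed it was larger, at -0.32, because the median of chromosome 17 was 0.17. The locus shares its range with Bysl on the opposite strand, which was higher by 0.24 ± 0.05 (SE) on the log2 scale.

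Within a library the makeup of the D cyclins changed accordingly. Fragments were divided by the exon length of each gene so that the genes could be set beside each other, and the shares are given as a description without a test. Ccnd1 held 60.4 ± 1.35% (SD, n = 3) of D cyclin fragments per kb in WT and 33.8 ± 1.45% in Yme1l-/- cells. The share of Ccnd2 was 21.5 ± 0.643% in WT and 45.7 ± 1.5% in Yme1l-/- cells. For Ccnd3 the shares were 18.04 ± 0.818% and 20.4 ± 0.397%. By this exon length Ccnd1 was the leading D cyclin message in all 3 WT libraries and Ccnd2 in all 3 Yme1l-/- libraries. This lead does not hold on every scale, since the FPKM values listed by Cuffdiff put Ccnd3 first in both genotypes (66.8 FPKM in WT and 59.9 FPKM in Yme1l-/- cells). Ccnd1 stood above Ccnd2 in WT and below it in Yme1l-/- cells on both scales. The cause of the difference between the scales was not tested. In fragments, without regard to length, there were 0.679 to 0.751 fragments of Ccnd2 for each fragment of Ccnd1 in WT libraries and 2.50 to 2.91 in Yme1l-/- libraries. The summed D cyclin level was 75.7 ± 2.6 CPM per kb in WT and 60.0 ± 2.71 CPM per kb in Yme1l-/- cells.

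**Figure D2:**
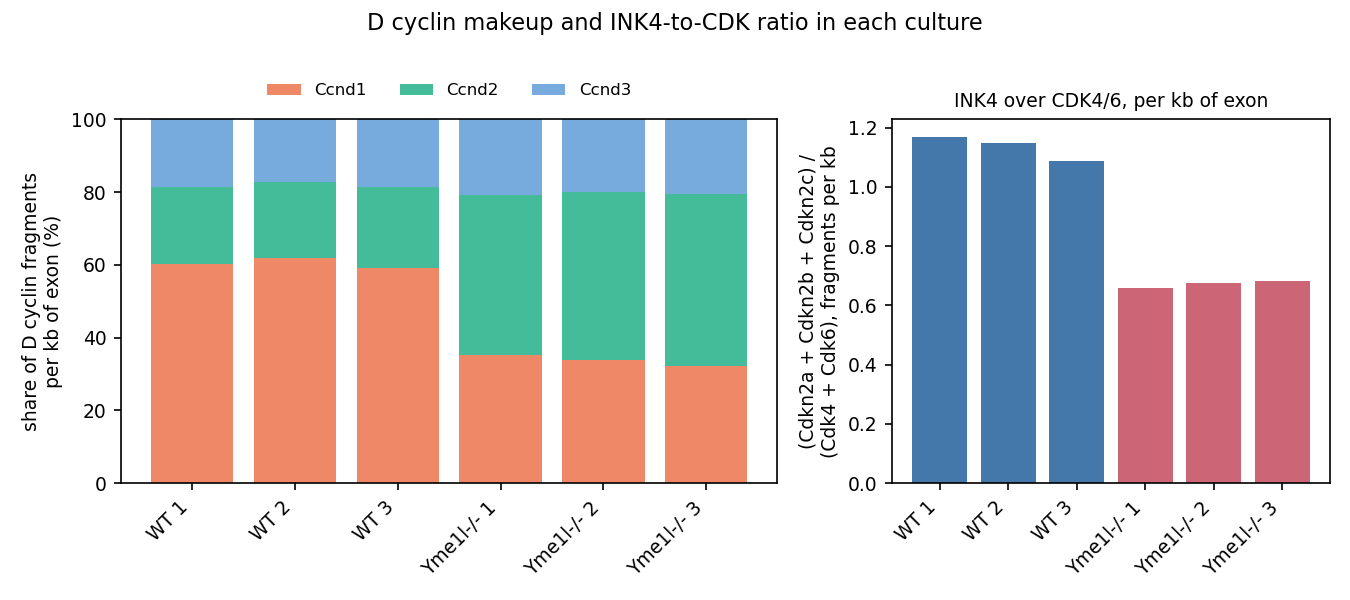
Left, share of D cyclin fragments per kb of exon (percent, stacked to 100) held by Ccnd1, Ccnd2 and Ccnd3 in each of the 6 cultures. Right, summed Cdkn2a, Cdkn2b and Cdkn2c fragments per kb over summed Cdk4 and Cdk6 fragments per kb (bars from 0). The Cdkn2a fragments include those of p19ARF messages. By this exon length Ccnd1 leads in the WT cultures and Ccnd2 in the Yme1l-/- cultures, whereas Ccnd3 leads in both by the FPKM values, and the ratio lies between 1.09 and 1.17 in WT and between 0.659 and 0.683 in Yme1l-/- cultures (0.433 and 0.253 by the FPKM values).

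The kinases also moved apart. Cdk4, whose promoter carries the E-boxes printed above, had 644, 635 and 629.9 CPM in WT and 894, 799 and 793 CPM in Yme1l-/- cultures. No culture of one genotype reached the range of the other. Cdk4 rose by 0.38 ± 0.06 (SE) on the log2 scale (edgeR adjusted p = 0.000101). The gene lies on chromosome 10 (127063534 to 127067920 in GENCODE, with a deposited range to 127070264), whose tested loci had a median log2 fold change of 0.30, and with chromosome medians removed its value was 0.08 (edgeR adjusted p = 0.221) and no longer a call. Tspan31, which overlaps the Cdk4 range on the opposite strand, rose by 0.50 ± 0.05 (SE) on the log2 scale.

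Cdk6 (chromosome 5, 3341485 to 3531008), the second kinase that D cyclins activate, fell. It had 129, 132 and 128 CPM in WT cultures and 70.4, 78.2 and 72.1 CPM in Yme1l-/- cultures, with a wide gap between genotypes. Its log2 fold change came to -0.82 ± 0.05 (SE; edgeR adjusted p = 8.78e-08), and to -0.83 with chromosome medians removed. Per kb of exon, Cdk4 made up 95.5 ± 0.0787% (SD, n = 3) of the fragments of both kinases in WT and 98.0 ± 0.216% in Yme1l-/- cells.

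Inhibitors of the INK4 family did not rise. Cdkn2a (chromosome 4, 89274471 to 89294653) had 232, 224 and 209.9 CPM in WT and 167, 154 and 154 CPM in Yme1l-/- cultures. The lowest WT culture lay above the highest Yme1l-/- culture. Cdkn2a fell by 0.49 ± 0.05 (SE) on the log2 scale (edgeR adjusted p = 7.2e-06), a sum over p16INK4a and p19ARF messages as set out above. Cdkn2b (chromosome 4, 89306289 to 89311032), the neighbouring INK4 gene that responds to TGF-beta, had 28.5, 27.4 and 25.7 CPM in WT and 23.5, 22.4 and 22.7 CPM in Yme1l-/- cultures. It was lower by a log2 fold change of -0.25 ± 0.06 (SE), for which edgeR gave an adjusted p of 0.00315. Removing chromosome medians left a value of -0.15 (edgeR adjusted p = 0.0445).

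Cdkn2c (chromosome 4, 109660876 to 109667189), which encodes p18INK4c, lies on the same chromosome some distance away. Its WT cultures had 64.7, 65.3 and 62.2 CPM and its Yme1l-/- cultures 66.7, 58.7 and 60.4 CPM. The genotypes overlapped, the log2 fold change was -0.05 ± 0.06 (SE) with a 95% interval from -0.17 to 0.07, and the edgeR adjusted p was 0.443. The sign of this value was positive under upper-quartile scaling and with chromosome medians removed. Summed per kb, the 3 INK4 genes stood at 1.13 ± 0.0426 (SD, n = 3) of the sum of Cdk4 and Cdk6 in WT. In Yme1l-/- cells this ratio was 0.672 ± 0.0120. Cdkn2a and Cdk4 weigh most in it, and its Cdkn2a part includes p19ARF messages, which do not encode an INK4 inhibitor. The level of the ratio depends on the scale. It was 0.914 in WT and 0.534 in Yme1l-/- cells with the longest transcript as length. By the FPKM values it was 0.433 and 0.253. The ratio was lower in Yme1l-/- cells on each of the 3 scales, but these rest on the same libraries and are not separate support. It was not computed with chromosome medians removed, a fit in which Cdk4 was no longer a call.

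Cdkn1b, the gene of p27 (chromosome 6, 134920401 to 134925513), was the inhibitor that rose. It had 75.0, 75.5 and 71.9 CPM in WT and 89.1, 86.6 and 88.3 CPM in Yme1l-/- cultures, without overlap. The rise was 0.25 ± 0.04 (SE) on the log2 scale (edgeR adjusted p = 0.000406). On the scale of its chromosome the direction turned, since with chromosome medians removed the value was -0.09 (edgeR adjusted p = 0.0829).

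Rb1 (chromosome 14, 73183673 to 73325822 in GENCODE, with a deposited range from 73123037), the gene of the pocket protein Rb that the kinases act on, was the least abundant of the 10. It had 14.8, 18.4 and 16.1 CPM in WT cultures, from 490 to 603 fragments, and 8.86, 12.1 and 12.2 CPM in Yme1l-/- cultures, from 310 to 624 fragments. The genotypes did not overlap, and Rb1 differed by a log2 fold change of -0.57 ± 0.13 (SE; edgeR adjusted p = 0.00235). Its interval, from -0.85 to -0.28, was the widest of the 10. Lpar6, a receptor gene inside Rb1 on the opposite strand, fell by 0.62 ± 0.08 (SE) on the log2 scale, from 16.2 to 10.5 CPM. Rcbtb2, which also overlaps the deposited Rb1 range on the opposite strand, fell by 0.37 ± 0.05 (SE). The libraries kept strand, but whether the counting used it is not given in the sources used here, so fragments of Rb1 and Lpar6 could not be told apart with certainty.

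**Figure D3:**
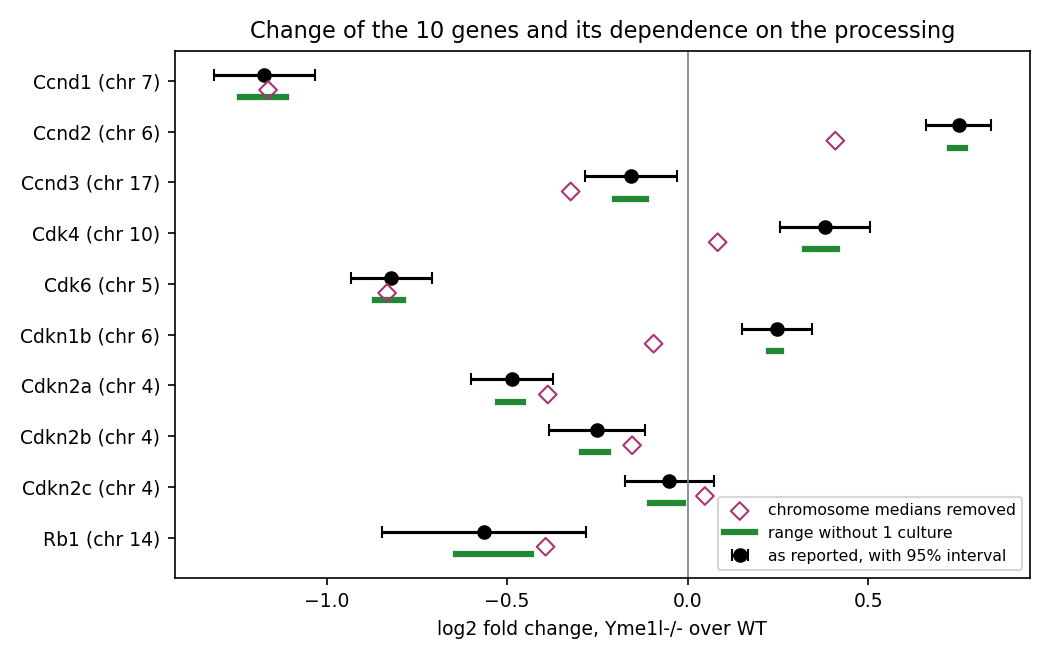
Log2 fold change of each gene, Yme1l-/- over WT, with its 95% interval (black), the range over the fits that leave out 1 culture each (green) and the value with chromosome medians removed (open diamonds). Ccnd1 and Cdk6 keep their values when chromosome medians are removed, Cdk4 moves to 0.08 and Cdkn1b to -0.09.

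Per kb of exon, the genes spanned a wide range of levels. In WT the order was Cdk4 (195.8 ± 2.21 CPM per kb, SD, n = 3), Cdkn2a (189 ± 9.55), Ccnd1 (45.7 ± 2.06), Cdkn2c (23.9 ± 0.626), Cdkn2b (19.6 ± 1.02), Ccnd2 (16.3 ± 0.44), Cdkn1b (16.3 ± 0.427), Ccnd3 (13.7 ± 0.813), Cdk6 (9.29 ± 0.143) and Rb1 (2.73 ± 0.304). Cdk4 and Cdkn2a, and likewise Ccnd2 and Cdkn1b, differed by less than the SD of the more variable gene of the pair on this scale. Neither held with the longest transcript as length, where Cdk4 stood at 309.9 ± 3.49 and Cdkn2a at 248 ± 12.5, and Ccnd2 at 24.2 ± 0.654 and Cdkn1b at 16.3 ± 0.427. In Yme1l-/- cells the order was Cdk4 (255 ± 17.3), Cdkn2a (135 ± 6.55), Ccnd2 (27.4 ± 0.327), Cdkn2c (23.1 ± 1.57), Ccnd1 (20.3 ± 1.77), Cdkn1b (19.3 ± 0.278), Cdkn2b (16.5 ± 0.407), Ccnd3 (12.3 ± 0.675), Cdk6 (5.26 ± 0.296) and Rb1 (1.84 ± 0.317). Here Ccnd1 and Cdkn1b differed by less than the SD of Ccnd1, which with the longest transcript they did not (25.6 ± 2.23 and 19.3 ± 0.278). Cdkn2a was thus among the most abundant of these messages in both genotypes and far above Cdkn2b, its neighbour.

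The loci around each gene were examined because the chromosomes differed between genotypes as a whole. Of the 7 other tested loci within 1 Mb of Cdkn2a, 5 were lower and none was higher, beside 38.7% lower and 24% higher on chromosome 4, with a median log2 fold change of -0.41 beside -0.10 for the chromosome. The lower loci included Cdkn2b itself and predicted genes. The same counts held for Cdkn2b (median -0.46), whose window shares most of these loci and has Cdkn2a among the lower ones. Mtap, the methylthioadenosine phosphorylase gene next to the locus, fell by 0.41 ± 0.04 (SE) on the log2 scale, from 182 to 138 CPM, and Klhl9, a ubiquitin ligase adaptor, fell by 0.46 ± 0.05 (SE). On the other side, beyond Cdkn2b and with predicted genes set aside, the nearest tested locus was Elavl2, a neuronal RNA-binding protein gene 2041 kb from Cdkn2a, at 0.0203 CPM in WT and 2.85 CPM in Yme1l-/- cells. Around Cdkn2c 9 of 14 loci were lower and 1 was higher (median -0.30). Around Cdk4 29 of 39 loci were higher and 2 were lower, beside 57.9% higher and 16.3% lower on the whole of chromosome 10, with a median of 0.51, so that Cdk4 itself rose less than the middle of its surroundings.

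Ccnd2 exceeded the median of its 10 neighbours (0.45, with 6 higher and 1 lower, beside 58.8% higher and 14.9% lower on chromosome 6). Cdkn1b had 18 neighbours, 8 of them higher and 7 lower, with a median of 0.09. Ccnd3, which was lower, lay among 35 loci of which 20 were higher and 5 lower (median 0.24), beside 46.6% and 20.5% on chromosome 17. For Ccnd1 the 9 neighbours had a median of -0.29, with 5 lower and 1 higher (31.5% and 28% on chromosome 7), and for Cdk6 the 15 neighbours had a median of -0.07, with 3 lower and 2 higher (29.2% and 31.5% on chromosome 5). Rb1 lay among 8 loci, 4 lower and none higher (48.5% and 16.2% on chromosome 14), with a median of -0.23. Ccnd1, Cdk6 and Rb1 thus fell further than the middle of the loci around them, as did Cdkn2a (-0.49 against -0.41). Ccnd3 also lay below the median of its neighbours. For Rb1 these loci include Lpar6, whose fragments could not be told apart from those of Rb1 with certainty. This is a description for which no test was made.

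**Figure D4:**
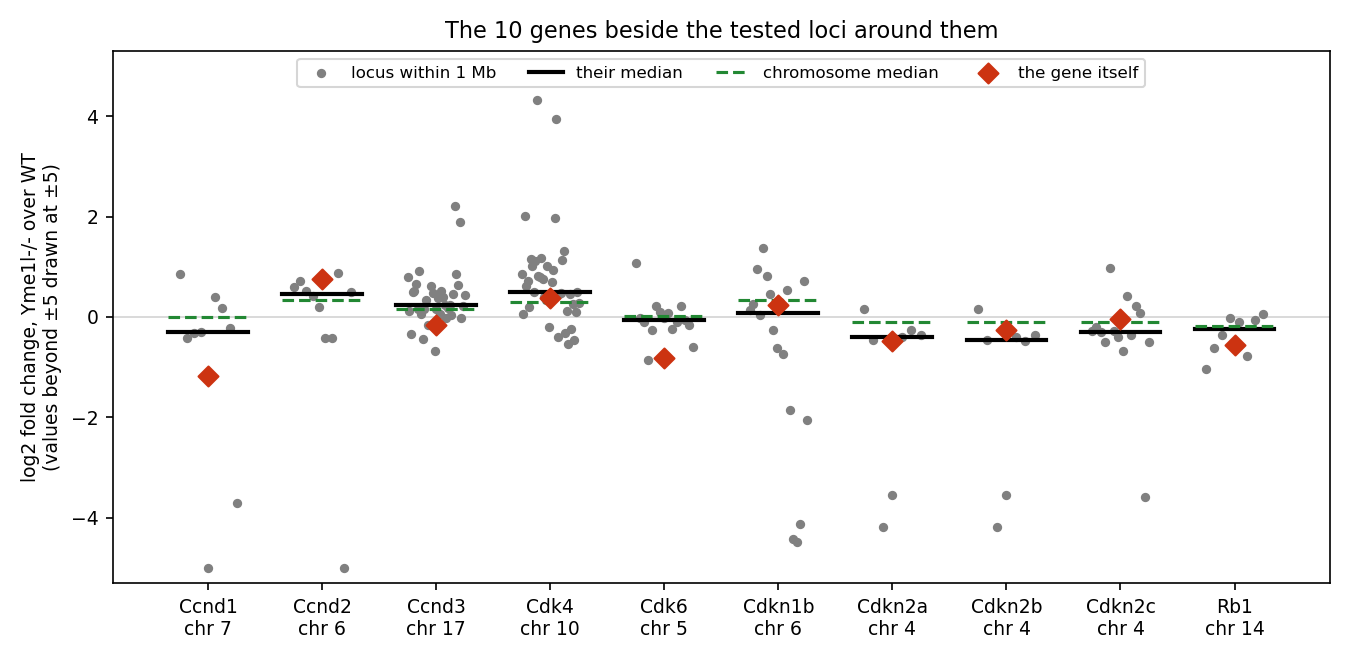
Log2 fold change of each of the 10 genes (red diamonds) beside the tested loci within 1 Mb (grey points, values beyond ±5 drawn at the edge), the median of those loci (black) and of the whole chromosome (dashed green). Cdk4 lies below its neighbours' median of 0.51, and Ccnd1 and Cdk6 lie well below medians of -0.29 and -0.07.

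Other inhibitors and pocket proteins were examined next. Of 5 genes (Cdkn1a, Cdkn1c, Cdkn2d, Rbl1 and Rbl2) 4 were called lower and none higher, with a median log2 fold change of -0.22 against -0.00 over all loci, of which 34.1% were lower and 33.6% higher. With chromosome medians removed the count was 3 lower and 2 higher, with a median of -0.36. Cdkn1c, the gene of the KIP inhibitor p57, was counted with 76, 79 and 78 fragments in WT and with none in each Yme1l-/- library (0 fragments). Counted against a floor of 3 fragments per library, it was at least 27.6-fold lower in Yme1l-/- cells. Rbl1, the gene of p107, fell by 0.49 ± 0.05 (SE) on the log2 scale, from 121 to 86.1 CPM. Cdkn2d, the fourth INK4 gene, and Cdkn1a, the p53 target that encodes p21, were lower, with log2 fold changes of -0.22 ± 0.06 and -0.19 ± 0.06 (SE). Rbl2, the gene of p130, had a log2 fold change of -0.15 ± 0.06 (SE) and missed the threshold (edgeR adjusted p = 0.0501), which it passed as lower in 6 alternatives, among them the fits without WT replicate 1 (-0.18) or Yme1l-/- replicate 3 (-0.18). The genes called higher with chromosome medians removed were Cdkn2d and Rbl2, at 0.14 and 0.17. The call of Cdkn1a was lost under upper-quartile scaling (-0.13) and without WT replicate 2 (-0.16) or Yme1l-/- replicate 2 (-0.15), while its value was -0.36 with chromosome medians removed.

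E2F factors and the MuvB complex, which turn the state of Rb and its relatives into transcription, gave 10 lower and 1 higher of 16, against 34.1% and 33.6% of all loci, with a median of -0.29. Removing chromosome medians left 8 lower and 3 higher, with a median of -0.12. E2f6, a repressor of E2F sites that does not bind Rb, fell by 1.63 ± 0.07 (SE) on the log2 scale, from 33.6 to 10.9 CPM. E2f8, another repressor, fell by 0.89 ± 0.06 (SE), and E2f4, the partner of p107 and p130 in resting cells, fell by 0.68 ± 0.05 (SE), with a value of -0.36 when chromosome medians were removed. Of 20 replication genes that E2F activates 1 was not analysed here, and among the remaining 19 9 were higher, 2 were lower and 8 were not called, with a median of 0.10, where 33.6% of all loci were higher and 34.1% lower. The higher calls numbered between 6 and 12 over the alternatives. They were 6 without WT replicate 1, WT replicate 2 or Yme1l-/- replicate 2, and without Yme1l-/- replicate 1 there were 7 higher and 4 lower. Mcm2, a subunit of the replicative helicase, rose by 0.73 ± 0.05 (SE) on the log2 scale (0.39 with chromosome medians removed). Rrm2, a subunit of ribonucleotide reductase, fell by 0.66 ± 0.04 (SE), with a value of -0.22 in that fit.

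Of 12 markers of G2 and mitosis 8 were lower and 2 higher, against 34.1% and 33.6% of all loci, with a median of -0.22. With chromosome medians removed 11 were lower and 1 higher, with a median of -0.39. Of the 12 genes 1 was counted on a locus merged with other genes. Ccnb2, the gene of cyclin B2, fell by 0.82 ± 0.04 (SE) on the log2 scale (-0.46 with chromosome medians removed), Mki67, the proliferation antigen, by 0.76 ± 0.10 (SE), and Cdc20, an activator of the anaphase-promoting complex, by 0.62 ± 0.05 (SE). Among the 15 genes of cyclin E and A, CDK2 and p27 turnover, 13 were tested, and 5 were higher, 5 lower and 3 not called (median 0.03), beside 67.7% of all loci called, and 6 were called with chromosome medians removed. The untested pair, Ccna1 and Skp2, had at most 11 fragments in any library, and Skp2 at most 2. Ccne2, the gene of cyclin E2, fell by 0.69 ± 0.09 (SE), Cks1b, a cofactor in the turnover of p27, fell by 0.59 ± 0.06 (SE), and Skp1a, a shared subunit of ubiquitin ligases, rose by 0.55 ± 0.04 (SE), or by 0.20 with chromosome medians removed.

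The genes that turn over or assemble cyclin D complexes gave 2 higher, 1 lower and 2 not called of 5 tested (median 0.22), against 33.6% higher and 34.1% lower of all loci, with 1 more gene of the list not analysed here. Fbxo4, a ubiquitin ligase subunit described for cyclin D1, rose by 0.50 ± 0.09 (SE) on the log2 scale. Ambra1, the adaptor that targets D cyclins for degradation, rose by 0.22 ± 0.05 (SE), and Cdc37, the chaperone that loads CDK4 onto HSP90, fell by 0.29 ± 0.05 (SE). Both Fbxo4 and Cdc37 changed sign with chromosome medians removed, to -0.09 and 0.07. In that fit 2 genes of the list were higher and none was lower, with a median of 0.07.

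Regulators of the Ink4-Arf locus, chiefly Polycomb proteins that silence it, gave 11 higher, 8 lower and 2 not called of 21 (median 0.24), against 33.6% higher and 34.1% lower of all loci. With chromosome medians removed 8 were higher and 8 lower, with a median of 0.00. Cbx7, a Polycomb reader that represses the locus, rose by 1.15 ± 0.08 (SE) on the log2 scale, from 11.4 to 25.2 CPM, or by 0.56 with chromosome medians removed. Hmga2, a chromatin protein of fetal cells known to hold the locus down, fell by 2.09 ± 0.10 (SE), from 386 to 90.6 CPM. In the circuit that joins p19ARF to p53, 1 of 5 genes was higher and 1 lower, beside 67.7% of all loci called, and with chromosome medians removed 1 was higher and 3 were lower. Trp53 rose by 0.74 ± 0.04 (SE), from 228 to 380.3 CPM (0.38 with chromosome medians removed), and Usp7, a deubiquitinase of MDM2 and p53, fell by 0.43 ± 0.04 (SE).

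Transcription factors known to act on the promoters of these genes gave 13 lower, 3 higher and 4 not called of 20 (median -0.30), against 34.1% lower and 33.6% higher of all loci. Upper-quartile scaling left 9 lower and 3 higher. Jun, a subunit of AP-1 and an activator of Ccnd1, fell by 1.37 ± 0.07 (SE) on the log2 scale, from 183 to 71.1 CPM. Fosb, its partner in AP-1, fell by 2.19 ± 0.20 (SE). Foxo1, which activates Cdkn1b and represses D cyclin genes, fell by 1.86 ± 0.05 (SE), from 75.4 to 20.8 CPM. No AP-1 site (TGANTCA) stood in the promoter entries of the 7 genes with one, where 7.81% of all entries held it. At that share an absence from so few entries says little. Ccnd1 had no entry, so its promoter was not searched.

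**Figure D5:**
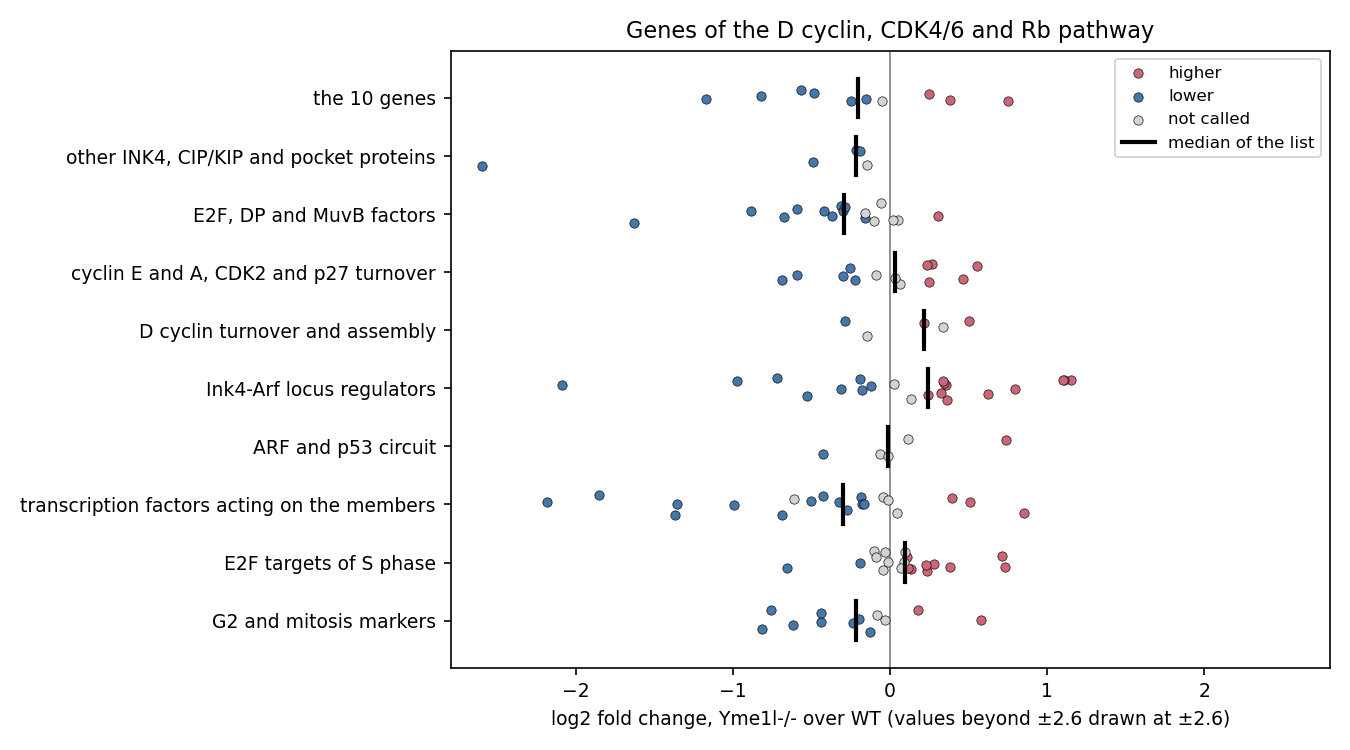
Log2 fold change, Yme1l-/- over WT, of each tested gene in the 10 genes and the 9 lists around them (red higher, blue lower, grey not called), with the median of each list (black). Cdkn1c lies beyond the axis and is drawn at its edge, and medians range from -0.30 for the transcription factors to 0.24 for the regulators of the Ink4-Arf locus.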

How the data were processed

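Poly(A) RNA of 3 WT and 3 Yme1l-/- MEF cultures was sequenced in stranded libraries. According to the methods and the submitters' processing notes, the authors aligned fragments to GRCm38 (mm10) with HISAT2 2.0.4, assembled transcripts with StringTie 1.3.3 and compared genotypes with Cuffdiff 2.2.1. The deposited counts are raw whole-number fragment counts per assembled locus, and the deposited FPKM values are the authors' combined value for each genotype. Columns with the authors' own fold changes and p-values were not used. Handling of fragments that map to several places, and use of strand in counting, are not given in the sources used here.

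Counts were tested with edgeR 4.0.16 (R 4.3.3, limma 3.58.1): filterByExpr with a minimum count of 10, TMM scaling, robust glmQLFit and two-sided glmQLFTest without covariates, Benjamini-Hochberg adjustment over 13867 loci, and a call at 0.05. SE was derived from the fold change and test statistic. CPM uses TMM-scaled totals and is given as mean ± SD. Levels per kb use GENCODE vM21 union exon lengths. Counting intervals and floors (3 counts) cover counting error only. The labels name no shared batch for equal replicate numbers, and deviations of same-numbered cultures correlated at 0.144, -0.0939 and 0.048, so the numbers were not taken to pair the cultures. No library repeated another, with a chi-square per degree of freedom of at least 8.71 between cultures of a genotype. If cultures of a genotype descend from 1 clone, p-values measure the spread between cultures only. The script was tested on simulated data.

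Alternatives (14) were RLE or upper-quartile scaling, DESeq2 1.42.0, all loci with at least 1 count in total, 10 counts in every sample, a replicate block, chromosome medians removed, thinning to the smallest total, and leaving out each culture. Shares and levels with the length of the longest transcript, the INK4 to CDK ratio by FPKM, and fibroblast marker counts without each culture were added after the data were seen. The members and lists were chosen with earlier results of these data known. Beyond members and Yme1l1, genes were named by rule: up to 3 called genes of largest change per list with at least 1 CPM and no overlap, all 5 other inhibitors and pocket proteins, and the nearest tested loci on each side of Cdkn2a and Cdkn2b (predicted genes as counts). Loci that share a range with a member, Thy1, Lum, Col3a1, Dcn, Krt18, Epcam, Cdh1, Kdr, Cd68, Map2, Des, Ccna1 and Skp2 were named outside this rule, after their values were seen. Promoters are from RefSeq. A few genes that the rule selects are not reported here.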

Additional observations from a re-analysis of the deposited data

How the results depend on the processing

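Over the 14 alternatives, 6 of the 9 called genes (Ccnd1, Ccnd2, Cdk6, Cdkn2a, Cdkn2b and Rb1) kept their call and direction, and between 7 and 9 of the 10 genes were called. Ccnd3 lost its call with upper-quartile scaling (log2 fold change -0.0972) and in 4 of 6 fits without 1 culture, which ranged from -0.201 to -0.114. With chromosome medians removed Cdk4 stood at 0.0832, not called, Cdkn1b turned to -0.0943, Cdkn2d to 0.142, Rbl2 to 0.167, Fbxo4 to -0.0893 and Cdc37 to 0.0708. Cdkn2c turned to 0.0479 in that fit and to 0.0093 with upper-quartile scaling. In the same fit without chromosome medians, 6 genes of the cyclin E and A list and 4 of the ARF and p53 list were called, against 10 and 2. The cause of these shifts was not tested beyond what removing a median does by construction. Upper-quartile scaling moved the median of all loci to 0.0552. Loci called numbered 8513 to 10051, and those with a change of at least 2-fold 1587 with 10 counts in every sample, a filter that removes loci near 0 in either genotype, against 2459. The replicate block gave 9794 called loci and changed no call of the 10 genes. With the longest transcript as length, Ccnd1 held 51.0% of D cyclin fragments per kb in WT and 27.1% in Yme1l-/- cells, Ccnd2 43.3% in Yme1l-/- cells, Ccnd3 27.5% and 29.6%, and Cdk4 96.5% and 98.4% of kinase fragments, and the INK4 to CDK ratio was 0.914 and 0.534. Rb1 had the fewest fragments of the 10 genes, 310 to 624 in a library.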

Other observations

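The authors' combined FPKM values, which were computed on the transcripts of their assembly, gave the same first, second, ninth and last places as fragments per kb of exon. Cdk4 was listed at 822 FPKM in WT and 1067 FPKM in Yme1l-/- cells, Cdkn2a at 306 and 219, Cdk6 at 14.4 and 9.12, and Rb1 at 3.87 and 2.90. Ccnd3 differed most between the scales. It was listed at 66.8 and 59.9 FPKM, the third place among the 10 genes, and above both other D cyclins, where it took the eighth place per kb of exon. Ccnd1 stood above Ccnd2 in WT (59.2 against 29.1 FPKM) and below it in Yme1l-/- cells (26.8 against 57.3 FPKM), as it did per kb of exon. These values are the authors' and carry no replicate error here.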
